A study of Mus musculus with 16 samples.

Results

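The genes of 7 plasma carrier proteins made by the liver, *Alb*, *Ttr*, *Trf*, *Afm*, *Gc*, *Afp* and *Rbp4*, are described here in mouse liver. They were taken from the deposited expression table by gene symbol, with no cut on measured values but with earlier results of these data known. All 7 were found among its 17003 genes. Liver polyA RNA was sequenced from 16 male mice, 8 weeks old, on standard chow and labelled as fed, with 1 library per mouse. The 8 Fgl1 WT mice carried floxed *Fgl1* alleles (Fgl1 fl/fl) without CRE recombinase, and the 8 Fgl1 LKO mice were littermates with the same floxed alleles and a CRE transgene under the albumin promoter, which acts in hepatocytes. The model therefore removes *Fgl1* from hepatocytes only, both genotypes carry the floxed alleles, and the CRE transgene is present in 1 genotype only. *Fgl1* encodes fibrinogen-like 1, a protein that hepatocytes secrete. The methods give fewer mice per genotype than the table holds, whereas a figure legend of the study gives 8 per genotype, as in the table. All 16 libraries were used. The comparison asks how the loss of hepatocyte *Fgl1* bears on the liver transcriptome, here on its carrier protein transcripts.

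Carrier proteins keep small or poorly soluble cargo in the circulation. Albumin (*Alb*) carries fatty acids, bilirubin, hormones and drugs and sets much of the oncotic pressure of plasma. It is the founding member of a family that also holds afamin (*Afm*), which carries vitamin E and keeps Wnt proteins soluble, alpha-fetoprotein (*Afp*), the main fetal form, and the vitamin D binding protein (*Gc*), which also binds actin. Transthyretin (*Ttr*) carries thyroxine and forms a complex with the retinol binding protein (*Rbp4*), which keeps this small protein from loss through the kidney. Transferrin (*Trf*) carries iron. During the acute-phase response, in which cytokines such as interleukin-6 turn hepatocytes towards the output of defence proteins, albumin, transthyretin and the retinol binding protein are known to decline in plasma and are called negative acute-phase proteins.

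On the mouse genome GRCm39 (GENCODE vM39 annotation), the albumin family genes lay on chromosome 5. *Alb* was annotated at chr5:90608647-90624696 on the plus strand with 15 exons in its principal transcript, *Afp* at chr5:90638584-90656766 and *Afm* at chr5:90666791-90701558, both on the plus strand and also with 15 exons. They follow each other head to tail, with 13.9 kb between *Alb* and *Afp* and 10.0 kb between *Afp* and *Afm*. *Gc* was at chr5:89561689-89605757 on the minus strand, 1003 kb from *Alb*, with 13 exons. *Trf* was at chr9:103081200-103107814 on the minus strand with 17 exons, and *Rbp4* at chr19:38105066-38113754 on the minus strand with 6 exons.

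The letters GTTAAT were among the short motifs searched, and they were found within the 250 bases before the start of the principal transcript of 4 of the 7 genes, on either strand, and these were the 4 genes of the albumin family. Of 21751 promoters of the same length in the genome, 6.28% held these letters. The stretches of 30 bases around the match nearest to each start are shown because they are a sequence feature that the choice of genes did not use. Capitals mark GTTAAT or its reverse complement ATTAAC, all stretches are written 5′ to 3′ in the direction of transcription, and they lie at chr5:90608685-90608714 (plus strand, *Alb*), chr5:90638456-90638485 (plus strand, *Afp*), chr5:90666723-90666752 (plus strand, *Afm*) and chr5:89605792-89605821 (minus strand, *Gc*).
Alb: gaggtaagtatgGTTAATgatctacagtta
Afp: gacccctgctctGTTAATtattggcaaatt
Afm: tttcagaaatagATTAACtaagttactttt
Gc: cccagtgacaaaGTTAATgattaaaacctc
The principal transcript starts at 90608749 in *Alb*, inside the span of the gene given above because another annotated transcript starts further upstream, and at the outer end of the span in *Afp*, *Afm* and *Gc*. The match lay 52 bases before that start in both *Alb* and *Gc*, counted to its first base, 56 bases before it in *Afm* and 116 bases before it in *Afp*. The letters CCAAT were found in 5 of the 7 promoters against 36.5% of all, TATAAA in 3 against 11.9%, and TATATA in none against 4.66%. In *Afp*, CCAAT lay 109 bases before the start, next to the GTTAAT match. A match of letters is a description and not a measured binding site.

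Values are FPKM, fragments scaled to transcript length and to the mapped fragments of the library, so that levels of different genes can be compared per length. Together the 7 genes made up between 7.26% and 12.8% (median 8.67%) of the summed FPKM of a library. *Alb* had the highest FPKM of all genes in 14 of the 16 libraries and was second to the major urinary protein gene *Mup7* in Fgl1 WT replicate 6 and Fgl1 LKO replicate 5. FPKM values do not show how deeply each library was sequenced, and the precision rests on the spread between mice. The summed FPKM ranged from 673153 to 786188 in Fgl1 WT and from 695123 to 738174 in Fgl1 LKO libraries. *Fgl1* itself had 504 ± 440 FPKM (SD, n = 8) in Fgl1 WT and 52.0 ± 29.96 FPKM (SD, n = 8) in Fgl1 LKO livers, with no overlap (log2 difference -3.11, limma adjusted p = 0.0725). The tissue label was checked with 6 hepatocyte markers, of which all 6 were expressed, while 3 of 4 pancreatic acinar markers and 1 of 3 adipocyte markers were at 0 in every library. The remaining acinar marker, *Cela1*, was found in every library, with a mean of 15.3 FPKM.

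In order of level, *Alb* came first, followed by *Trf*, *Ttr*, *Gc*, *Rbp4*, *Afm* and *Afp*. *Alb* exceeded *Trf* by 2.70 to 6.17 times in FPKM, and this order held in 16 of 16 libraries. *Trf* over *Ttr*, *Ttr* over *Gc*, *Rbp4* over *Afm* and *Afm* over *Afp* also held in 16 of 16. *Gc* and *Rbp4* were neighbours whose order was not the same in every liver, since *Gc* was higher in 14 of 16 and the ratio ranged from 0.946 to 1.67. Afamin, with a mean of 118 FPKM over all livers, was 27.6-fold below *Rbp4*. *Afp*, with a mean of 0.583 FPKM, was 203-fold below *Afm*, its neighbour on the chromosome, and lay 10803rd among all genes by mean FPKM where *Alb* lay 1st. The genes also differed in how much they varied between mice, with a coefficient of variation of 6.37% for *Gc*, between 13.3% and 19.1% for *Rbp4*, *Trf*, *Afm*, *Ttr* and *Alb*, and 38.3% for *Afp*, whose values rest on few fragments and are given to 2 decimals.

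**Figure D1:**
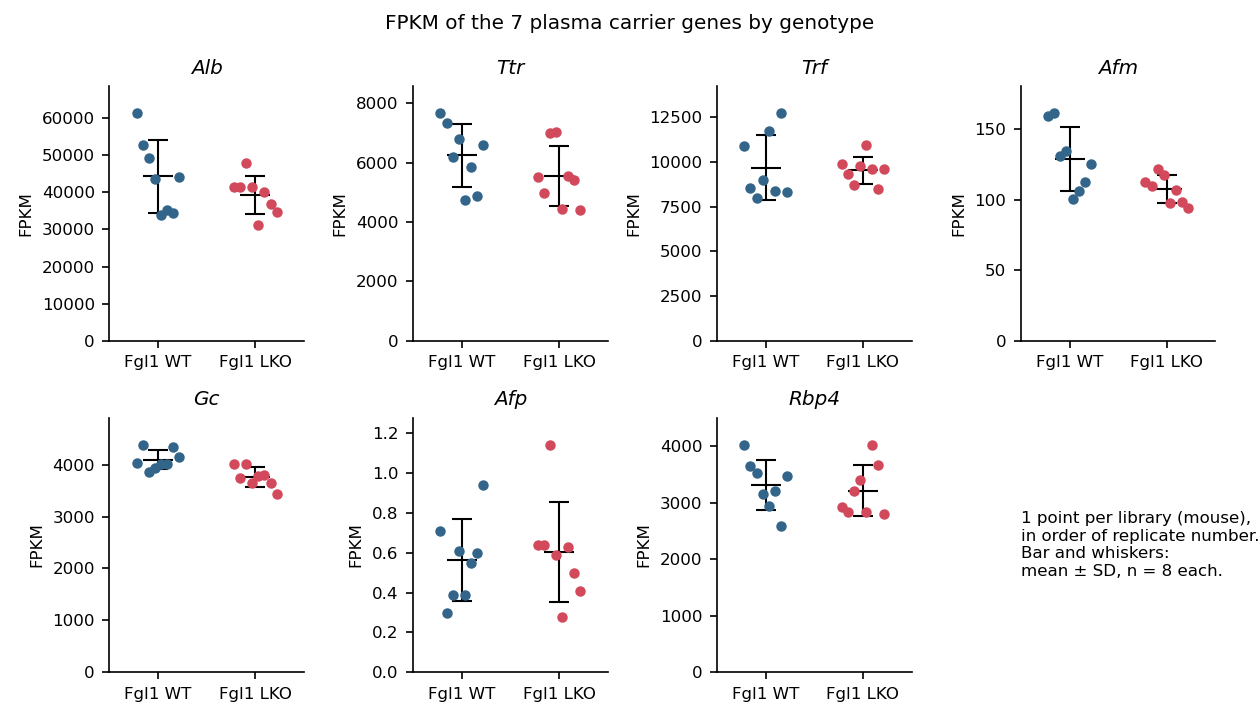
FPKM (y axis, from 0) of the 7 carrier genes in Fgl1 WT (blue) and Fgl1 LKO (red) livers, with 1 point per library and the mean ± SD (n = 8). The genotypes overlap for every gene, with *Gc* the tightest of the 7 and 2 of 8 Fgl1 LKO livers inside its Fgl1 WT range.

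Genotypes were compared with limma on log2(FPKM + 1) over the 12770 genes whose mean reached 0.1 FPKM, a filter that all 7 carrier genes passed, with Benjamini-Hochberg adjustment. None of the 7 passed the threshold of 0.05 on the adjusted p, and 0% of all genes did. *Fgl1* itself, with a log2 difference of -3.11, did not pass either (limma adjusted p = 0.0725), so a missing call does not show that a gene is unchanged. At an unadjusted p under 0.05, 1 of the 7 was counted, *Afm*, against 7.01% of all genes (895 genes). By exact permutation, 2 of the 7 had an unadjusted p under 0.05, *Afm* and *Gc*, against 7.06% of all genes (902 genes), and 0 of 12770 genes did after adjustment. The adjusted exact test could hardly pass any gene, since *Fgl1*, at its smallest possible p of 0.000155, had an adjusted p of 0.5635. Groups that do not overlap were found for none of the 7 and for 0.0157% of all genes (2 genes). The median log2 difference of the 7 was -0.12, and that of all genes tested 0.014.

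Among the thyroxine and retinol carriers, *Ttr* (chr18:20797253-20807467, plus strand, 4 exons) had a lowest, median and highest value of 4747, 6382 and 7654 FPKM in Fgl1 WT livers and of 4405, 5470 and 7037 FPKM in Fgl1 LKO livers. The groups overlapped, and 6 of 8 Fgl1 LKO livers lay below the Fgl1 WT median. The log2 difference, Fgl1 LKO minus Fgl1 WT, was -0.17 (95% interval -0.45 to 0.10, limma adjusted p = 0.770). Its partner *Rbp4* had 2594, 3340 and 4024 FPKM in Fgl1 WT and 2806, 3064 and 4022 FPKM in Fgl1 LKO livers, and all 8 Fgl1 LKO livers lay within the Fgl1 WT range. The log2 difference of *Rbp4* was -0.049 (95% interval -0.27 to 0.17, limma adjusted p = 0.924). The ratio of *Ttr* to *Rbp4* transcripts lay between 1.38 and 2.19 in all libraries.

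In the albumin family, *Alb* had 33747, 43812 and 61191 FPKM (lowest, median, highest) in Fgl1 WT and 31146, 40634 and 47785 FPKM in Fgl1 LKO livers. Means were 44230 ± 9798 and 39271 ± 5077 FPKM (SD, n = 8 each). The 3 highest values of all belonged to Fgl1 WT replicates 1, 2 and 3, with 61191, 52674 and 49054 FPKM. These are the mice with numbers 36 to 38. The mouse numbers were put here into 4 runs (36 to 38, 48 to 55, 60 to 64 and 69 to 72), a grouping that the labels do not make, and the first run is the only one that holds 1 genotype. The log2 difference of *Alb* was -0.15 (95% interval -0.47 to 0.17, limma adjusted p = 0.815), and it was 0.040 without these 3 libraries (adjusted p = 0.965) and -4.79e-05 with the run in the fit. The difference of *Ttr*, -0.17 above, was likewise -0.061 without these 3 libraries and -0.098 with the run in the fit. What the runs stand for is not given in the labels, so that for these 3 mice run and genotype cannot be told apart.

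Afamin was the carrier with the lowest unadjusted p in limma. *Afm* had 100.2, 128 and 161 FPKM (lowest, median, highest) in Fgl1 WT and 94.0, 108 and 122 FPKM in Fgl1 LKO livers, so that all 8 Fgl1 LKO livers lay below the Fgl1 WT median while 5 of them lay within the Fgl1 WT range. The log2 difference was -0.25 (SE 0.097, 95% interval -0.45 to -0.043), with an unadjusted p of 0.0202 and an adjusted p of 0.696 in limma. It kept its sign in all 29 alternatives and ranged from -0.33 to -0.11, with -0.11 without the first run of mouse numbers and -0.14 with the run in the fit.

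The vitamin D binding protein gene showed the least spread. *Gc* had 3861, 4020 and 4379 FPKM (lowest, median, highest) in Fgl1 WT and 3437, 3758 and 4012 FPKM in Fgl1 LKO livers, with means of 4089 ± 185 and 3757 ± 192 FPKM (SD, n = 8 each). All 8 Fgl1 LKO livers lay below the Fgl1 WT median and 2 of 8 lay within the Fgl1 WT range. The log2 difference was -0.12 (95% interval -0.26 to 0.019) and the 2 tests gave different unadjusted values for it. The exact permutation p was 0.0028 (two-sided) and the limma p 0.0855, since limma moves a gene's spread towards that of genes of like level and the residual SD of *Gc* was lower than that of all but 1.65% of genes. Neither passed after adjustment over all genes (exact permutation 0.563, limma 0.707). The adjusted exact value decides little, since *Fgl1*, at the smallest p that the exact test can give, had the same adjusted value. The difference kept its sign in all 29 alternatives, between -0.23 and -0.10.

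*Afp*, the fetal member, had 0.30, 0.575 and 0.94 FPKM (lowest, median, highest) in Fgl1 WT and 0.28, 0.61 and 1.14 FPKM in Fgl1 LKO livers. The groups overlapped almost wholly (log2 difference 0.035 on the log2(FPKM + 1) scale, which understates changes of low genes, 95% interval -0.16 to 0.23, limma adjusted p = 0.943), and the sign turned without the first run of mouse numbers (-0.019). For the iron carrier *Trf*, values were 7983, 8754 and 12705 FPKM in Fgl1 WT and 8475, 9609 and 10911 FPKM in Fgl1 LKO livers. All 8 Fgl1 LKO livers lay within the Fgl1 WT range, and the log2 difference was -0.0046 (95% interval -0.24 to 0.24, limma adjusted p = 0.992). The Fgl1 WT livers were the more spread for *Trf*, with an SD of 1809 FPKM against 750 FPKM, and their highest values were those of replicates 7 and 5, with 12705 and 11690 FPKM. The same 2 livers had the 2 highest *Saa1* values of the series.

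Since several carriers are known to respond in the acute phase, each liver was given an acute-phase score, the mean of the standardised log2 values of 12 positive acute-phase genes (*Saa1*, *Saa2*, *Saa3*, *Orm1*, *Orm2*, *Orm3*, *Lcn2*, *Lbp*, *Apcs*, *Serpina3n*, *Itih3* and *Itih4*), scaled to an SD of 1. The livers spanned a wide range, with *Saa1* between 63.8 and 16268 FPKM. The score ran from -1.10 in Fgl1 LKO replicate 3 to 1.92 in Fgl1 WT replicate 7, and it did not separate the genotypes (exact permutation test, two-sided, p = 0.808). The 5 lowest scores belonged to Fgl1 WT replicates 1, 2 and 3 and Fgl1 LKO replicates 3 and 4. The slope of each gene on the score was tested with limma over 12758 genes, with genotype as a covariate and without the 12 score genes.

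*Ttr* was the carrier gene whose slope passed the threshold, 1 of 7, where 1.37% of all genes (175 genes) were lower with a higher score. At the low end of the score, *Ttr* was 6990 FPKM in Fgl1 LKO replicate 3, 6175 FPKM in Fgl1 WT replicate 3 and 7654 FPKM in Fgl1 WT replicate 1. At the high end, it was 4865 FPKM in Fgl1 WT replicate 7, 4747 FPKM in Fgl1 WT replicate 5 and 4446 FPKM in Fgl1 LKO replicate 5. *Ttr* fell by 0.22 on the log2 scale per SD of the score (SE 0.039, 95% interval -0.30 to -0.14, limma adjusted p = 0.00835), a change of -14.1% per SD, and it was 42nd of 12758 genes in order of p. Pearson's r was -0.85 (permutation adjusted p = 0.0176) and Spearman's rho -0.85 (permutation adjusted p = 0.0196), and r was -0.87 without the 2 livers farthest from the median score. Within Fgl1 WT livers r was -0.90 and within Fgl1 LKO livers -0.90 (exact permutation p = 0.00615 and 0.0034). In the 3 later runs of mouse numbers the slope was -0.35, -0.24 and -0.13 with 4, 5 and 4 livers, and in the first run it was 1.01 over 3 livers whose scores lay between -1.04 and -0.879. The limma call was lost when the run was a term of the fit (slope -0.23, adjusted p = 0.102), without the 2 livers farthest from the median score (-0.20, adjusted p = 0.1003) and within 1 genotype alone (-0.23 in each, adjusted p = 0.164 in Fgl1 WT and 0.285 in Fgl1 LKO), but in none of the 16 fits that left out a single library.

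*Alb* had a slope close to that of *Ttr*. It was 47785 FPKM in Fgl1 LKO replicate 3 and 49054 FPKM in Fgl1 WT replicate 3, at the low end of the score, and 34286 FPKM in Fgl1 WT replicate 7, 33747 FPKM in Fgl1 WT replicate 5 and 31146 FPKM in Fgl1 LKO replicate 5, at the high end. The slope was -0.20 (SE 0.051, 95% interval -0.31 to -0.090) per SD, or -12.8%, with a limma adjusted p of 0.0528, just above the threshold. Pearson's r was -0.77 (permutation adjusted p = 0.0366) and Spearman's rho -0.85 (permutation adjusted p = 0.0157), both under it, and r was -0.75 without the 2 livers farthest from the median score. The limma call also depended on single libraries, since the adjusted p was 0.0363, 0.0403 and 0.0403 without Fgl1 WT replicate 6, Fgl1 LKO replicate 6 and Fgl1 LKO replicate 7, and between 0.0567 and 0.171 without any of the others. With the run in the fit the slope was -0.11 (adjusted p = 0.481), and within the 4 runs in order it was 0.016, -0.14, -0.12 and -0.091. After quantile normalization the slope was -0.043 (adjusted p = 0.796). Rank alone sets a value in that scaling, and *Alb* was the highest gene in 14 of 16 libraries, so this slope says little. Within Fgl1 WT livers r was -0.80 and within Fgl1 LKO livers -0.77 (exact permutation p = 0.0118 and 0.0253).

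*Afm* and *Rbp4* also had negative slopes that did not pass. For *Afm* the slope was -0.14 (SE 0.037, 95% interval -0.22 to -0.063, limma adjusted p = 0.0554), with r of -0.64 and rho of -0.70 (permutation adjusted p = 0.117 and 0.0744), and r of -0.72 without the 2 livers farthest from the median score. Within the 4 runs in order the slope of *Afm* was 1.42, -0.16, -0.090 and 0.0073, and with the run in the fit it was -0.073 (adjusted p = 0.541). The adjusted p of *Afm* was 0.0343, 0.0479 and 0.0329 without Fgl1 WT replicate 6, Fgl1 LKO replicate 6 and Fgl1 LKO replicate 7. For *Rbp4* it was -0.12 (SE 0.043, 95% interval -0.21 to -0.031, limma adjusted p = 0.133), with r of -0.65 and rho of -0.63 (permutation adjusted p = 0.118 and 0.117), and r of -0.50 without the 2 farthest livers. Fgl1 LKO replicate 6 stood apart for *Rbp4*, with 4022 FPKM at a score of 0.557. Without it the slope was -0.14 and passed (limma adjusted p = 0.0369). Within the 4 runs in order the slope of *Rbp4* was -0.068, -0.13, -0.085 and -0.21, and r was -0.85 within Fgl1 WT and -0.38 within Fgl1 LKO livers (exact permutation p = 0.00409 and 0.350).

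*Trf* had the opposite sign. It was highest in the 3 livers of highest score, with 12705, 11690 and 10911 FPKM in Fgl1 WT replicates 7 and 5 and Fgl1 LKO replicate 5, although Fgl1 WT replicate 1, with a score of -1.002, had 10863 FPKM. The slope was 0.14 (SE 0.043, 95% interval 0.051 to 0.23) per SD, or 10.3%, and did not pass (limma adjusted p = 0.0887), whereas it was 0.17 and passed without Fgl1 WT replicate 1 (adjusted p = 0.0437). Pearson's r was 0.73 (permutation adjusted p = 0.0672) and rho 0.59 (permutation adjusted p = 0.153), and r was 0.45 without the 2 livers farthest from the median score, both Fgl1 WT, where the slope was 0.048 (limma adjusted p = 0.718). Within Fgl1 LKO livers, which hold neither of them, r was 0.71 and within Fgl1 WT livers 0.76 (exact permutation p = 0.0451 and 0.0358). Within the 4 runs in order the slope was -0.29, 0.10, 0.14 and 0.24, and after quantile normalization it was 0.062 over all livers (limma adjusted p = 0.679). No carrier of the 7 passed with a positive slope, against 0.768% of all genes (98 genes).

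The slopes of *Gc* and *Afp* on the score did not pass. The slope of *Gc* was 0.004 (95% interval -0.059 to 0.067, limma adjusted p = 0.955), and its sign depended on the scaling, being -0.017 when every library was rescaled to the same sum. Pearson's r of *Gc* was -0.0017 and rho -0.088 (permutation adjusted p = 0.998 and 0.875). Without the 2 livers farthest from the median score, r of *Gc* was -0.44. It was 0.34 within Fgl1 WT and -0.29 within Fgl1 LKO livers (exact permutation p = 0.421 and 0.491). The slope of *Afp* was -0.062 (95% interval -0.16 to 0.038, limma adjusted p = 0.494), with r of -0.31 and rho of -0.24 (permutation adjusted p = 0.527 and 0.631). Within Fgl1 LKO livers r of *Afp* was -0.74 (exact permutation p = 0.0263) and within Fgl1 WT livers -1.83e-05 (exact permutation p = 1), neither adjusted. Fgl1 LKO replicate 3 had the highest *Afp* (1.14 FPKM) and the lowest score, and without it the slope over all other livers was -0.027. The median slope of the 7 genes was -0.12, that of all genes tested -0.026 and that of the 757 genes whose mean reached 100 FPKM -0.039. The permutation p-values of r and rho over all livers were adjusted over the 12758 genes for which the relation was computed. Of these genes, 230 passed for r and 253 for rho. The exact permutation p-values within 1 genotype, given for each carrier above, were not adjusted.

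**Figure D2:**
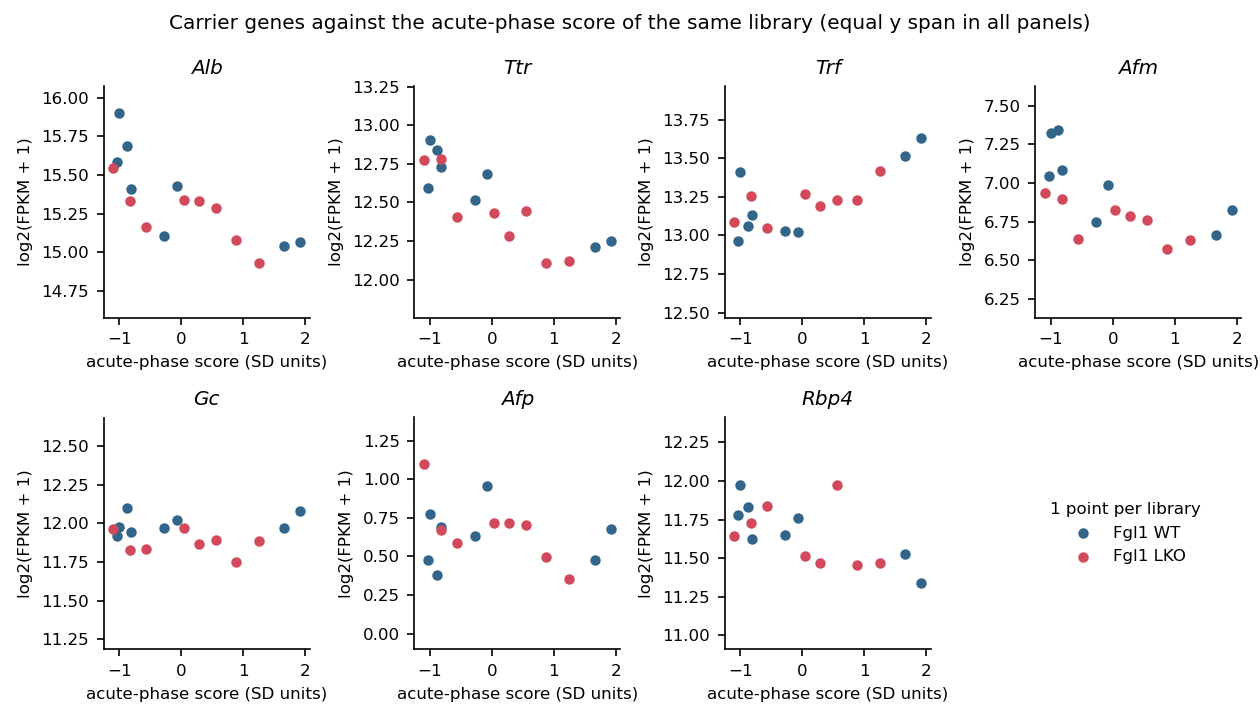
log2(FPKM + 1) of each carrier gene (y axis) against the acute-phase score of the same library in SD units (x axis), with Fgl1 WT in blue and Fgl1 LKO in red and the same y span in every panel. *Ttr* and *Alb* are lower at higher scores in both genotypes (r = -0.85 and -0.77 over all livers), and *Trf* is higher (r = 0.73). *Gc* has an r of -0.0017 over all livers, and of -0.44 without the 2 livers farthest from the median score.

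Because the values are shares of a library, the carriers were also set against each other within a liver, which removes the scaling. *Trf* was taken as the divisor because its slope on the score was opposite to those of *Alb* and *Ttr*. Low ratios at high scores therefore restate these slopes and are no separate evidence. The ratio of *Alb* to *Trf* was 6.17 in Fgl1 WT replicate 2 and 2.70 in Fgl1 WT replicate 7. The next lowest values were 2.85 in Fgl1 LKO replicate 5 and 2.89 in Fgl1 WT replicate 5, followed by 3.60 in Fgl1 LKO replicate 8. The ratio of *Ttr* to *Trf* was lowest in the same 4 libraries, with 0.383, 0.406, 0.407 and 0.459 in Fgl1 WT replicates 7 and 5 and Fgl1 LKO replicates 5 and 8, and reached 0.858 in Fgl1 WT replicate 2. The ratio of *Alb* to *Ttr* ranged only from 5.87 to 8.27.

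**Figure D3:**
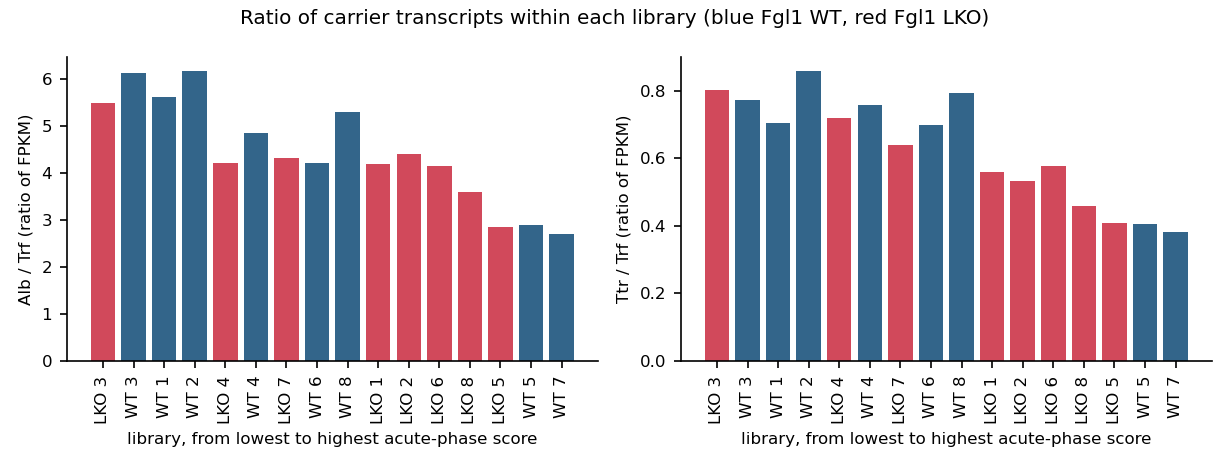
Ratio of *Alb* to *Trf* (left) and of *Ttr* to *Trf* (right) in FPKM within each library, as bars from 0, with libraries ordered from the lowest to the highest acute-phase score (blue Fgl1 WT, red Fgl1 LKO). The 3 bars at the right end, Fgl1 LKO replicate 5 and Fgl1 WT replicates 5 and 7, are the lowest in both plots, from 2.70 to 2.89 on the left and from 0.383 to 0.407 on the right.

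The summed levels of marker lists were set against the score as a description, without a test of their members. The summed FPKM of the 6 hepatocyte markers ranged from 15820 to 21058 in Fgl1 WT and from 14218 to 19281 in Fgl1 LKO livers and had an r of -0.73 with the score over the 16 libraries, a sum that *Apoa1* dominates (mean 10223 FPKM), while *Hnf4a* of the same list (mean 178 FPKM) had a slope of 0.079 (limma adjusted p = 0.564). That of the 4 sinusoidal endothelial markers (up to 71.7 FPKM in Fgl1 WT and 86.7 FPKM in Fgl1 LKO livers) also had an r of -0.73. The 5 leukocyte markers summed to between 1.53 and 32.6 FPKM in Fgl1 WT and between 3.41 and 26.8 FPKM in Fgl1 LKO livers, with an r of 0.73, and only *S100a8* and *S100a9* of them reached a mean of 1 FPKM, while *Ly6g* had a highest value of 0.1 FPKM. The 6 Kupffer cell markers summed to between 52.5 and 140.5 FPKM over both genotypes, with an r of 0.24. In whole liver, fewer cells of a type and less RNA per cell cannot be told apart, and the part of these markers in the slopes of *Ttr* and *Alb* was not tested.

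The relation to the score was not shown to differ between the genotypes. The interaction of genotype and score passed for none of the 7 genes and for 0% of all genes, while 7.39% of all genes (943 genes) had an unadjusted p under 0.05. None of the 7 was among them. The lowest unadjusted p was that of *Afp* (limma, 0.0589, adjusted 0.668), with a difference in slope of -0.19 (95% interval -0.39 to 0.0081). Without Fgl1 LKO replicate 3 this difference was -0.11. For *Ttr* the difference in slope was -0.084 (95% interval -0.26 to 0.088) and for *Alb* 0.037 (95% interval -0.20 to 0.27).

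**Figure D4:**
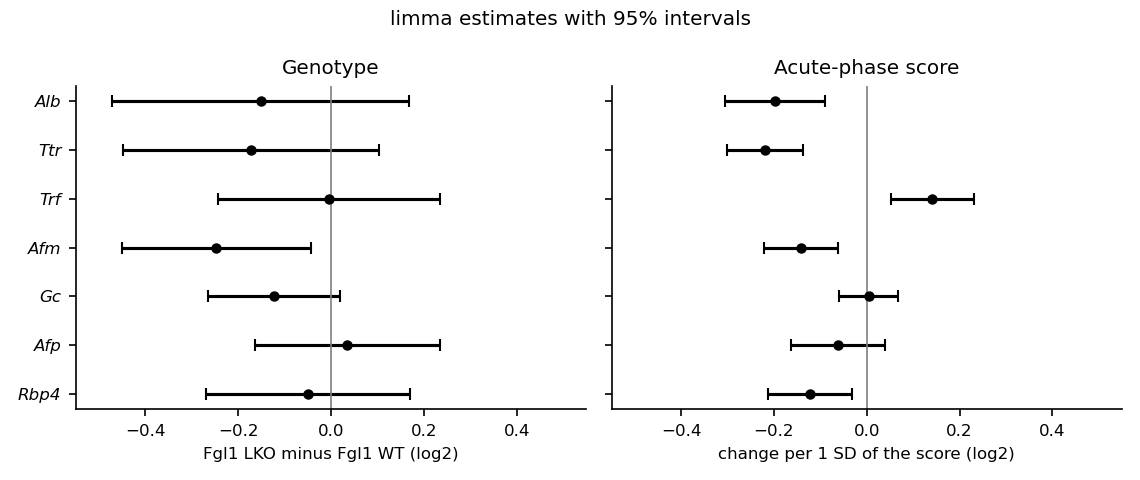
limma estimates on the log2 scale for each carrier gene, with 95% intervals, for Fgl1 LKO minus Fgl1 WT (left) and for the change per SD of the acute-phase score (right). Unadjusted intervals exclude 0 for *Afm* on the left and for *Alb*, *Ttr*, *Trf*, *Afm* and *Rbp4* on the right, of which *Ttr* on the right passed after adjustment over all genes (0.00835).

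For comparison, 17 other plasma carrier genes were listed, of which 15 passed the filter on low values. *Shbg*, for the sex hormone binding globulin, was listed at 0 in every library, and *Apod* had a highest value of 0.07 FPKM. None of the 15 differed between genotypes after adjustment. At an unadjusted p under 0.05 there were 3 of 15, against 7.01% of all genes, named after their values were seen, namely *Serpina6* (the corticosteroid carrier, log2 difference -0.50), *Igfals* (which stabilises circulating insulin-like growth factors, -0.31) and *Pltp* (phospholipid transfer protein, 0.46), with limma adjusted p of 0.660, 0.696 and 0.696. With the score, 4 of 15 rose and 0 fell, against 0.768% and 1.37% of all genes, and 5.15% and 3.57% of the genes whose mean reached 100 FPKM. The haemoglobin scavenger *Hp* (haptoglobin) rose by 0.77 per SD on the log2 scale (limma adjusted p = 4.4e-07), and the haem scavenger *Hpx* (hemopexin) by 0.76 (5.83e-07). *Ambp*, the precursor of alpha-1-microglobulin and bikunin, rose by 0.31 (limma adjusted p = 0.00295), and the copper carrier *Cp* (ceruloplasmin) by 0.29 (0.000403). Several of these are themselves textbook positive acute-phase proteins. *Ahsg* (fetuin-A), the highest of the list, had a mean of 8028 FPKM and a slope of 0.020 (limma adjusted p = 0.868). The median slope of the list was 0.019.

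**Figure D5:**
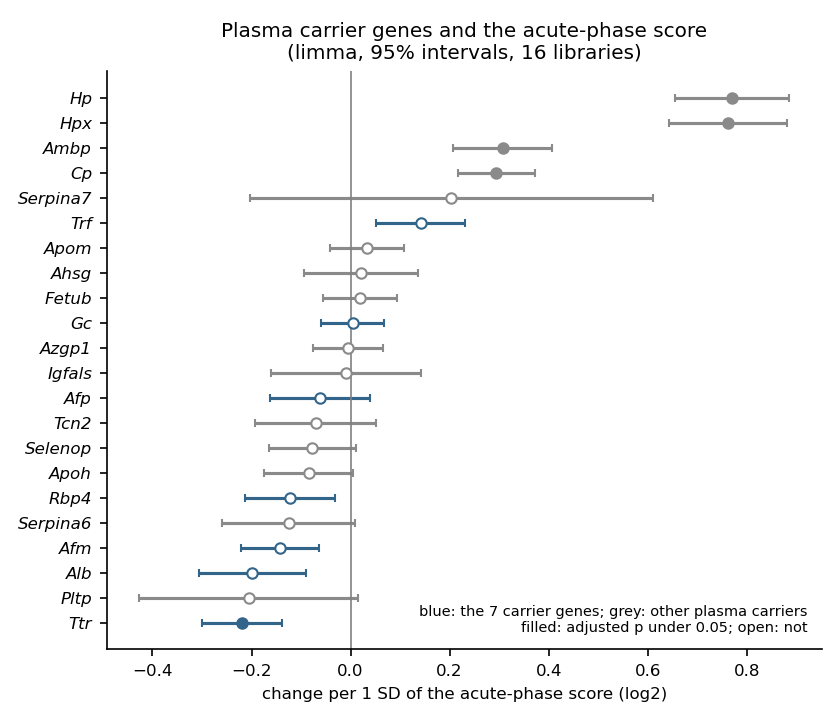
Change per SD of the acute-phase score (x axis, log2, with 95% intervals) of the 7 carrier genes (blue) and 15 other plasma carrier genes (grey), over 16 libraries. Filled symbols passed the threshold on the adjusted p, namely *Hp*, *Hpx*, *Ambp* and *Cp* with positive slopes and *Ttr* with a negative slope.

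Of 21 listed genes for the receptors and handling of the cargo, 19 were in the table and 15 passed the filter. None differed between genotypes after adjustment, and none had an unadjusted p under 0.05. With the score 1 of 15 fell and 0 rose, against 1.37% and 0.768% of all genes. It was *Slc40a1*, for ferroportin, which exports iron from cells for loading onto transferrin, at -0.24 per SD (limma adjusted p = 0.0390), opposite in sign to *Trf*. *Asgr1* and *Asgr2*, the subunits of the asialoglycoprotein receptor that clears plasma glycoproteins, had means of 405 and 131 FPKM and slopes of 0.0085 and -0.019. *Cyp27a1*, a sterol hydroxylase that also acts on vitamin D, had a mean of 333 FPKM and a slope of -0.021. The retinol binding protein receptor gene *Stra6* was listed at 0 in every library, and the vitamin D receptor gene *Vdr* had a highest value of 0.03 FPKM.

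Of 21 transcriptional regulators listed for these genes, all 21 passed the filter and none differed between genotypes after adjustment. At an unadjusted p under 0.05 there were 5 of 21, against 7.01% of all genes, named after their values were seen, *Foxa1* (log2 difference -0.33), *Zbtb20* (0.67), *Nfia* (-0.34), *Nfib* (-0.29) and *Trp53* (0.31). *Zbtb20*, known as a repressor of *Afp* in the adult liver, had 1.67 ± 0.412 FPKM (SD, n = 8) in Fgl1 WT and 3.48 ± 1.85 FPKM (SD, n = 8) in Fgl1 LKO livers, beside *Afp* levels of 0.561 ± 0.206 and 0.604 ± 0.252 FPKM (SD, n = 8 each). The limma p of *Zbtb20* was 0.00211 and its adjusted p 0.685. With the score 1 of 21 fell and 0 rose, against 1.37% and 0.768% of all genes. *Cebpa*, for a hepatocyte factor that acts on the albumin promoter, had a mean of 122 FPKM and fell by 0.21 on the log2 scale per SD (limma adjusted p = 0.0453). *Hnf4a* (178 FPKM) had a slope of 0.079 and *Cebpb* (63.6 FPKM), known for its part in the acute-phase response, of 0.068, with limma adjusted p of 0.564 and 0.791.

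The carriers also varied together across the 16 libraries, which share the genotype groups, the runs and the score. *Alb* and *Afm*, close to each other on chromosome 5, had a Pearson r of 0.91, *Alb* and *Ttr*, on different chromosomes, 0.86, and *Ttr* and *Afm* 0.86. With the score alone removed by a linear fit, and genotype left in, these were 0.84, 0.60 and 0.77. *Afp*, which lies between *Alb* and *Afm*, had an r of 0.35 with *Alb* and 0.19 with *Afm*, which were 0.88 and 0.72 without the 3 livers of the first run, where *Alb* and *Afm* were high and *Afp* was 0.71, 0.30 and 0.39 FPKM. *Trf* had an r of -0.36 with *Alb* and -0.44 with *Ttr*, and these turned to 0.46 and 0.50 with the score removed in the same way. *Gc* was nearest to *Afm* (0.58) and *Rbp4* to *Ttr* (0.68).

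Among 10031 other genes whose mean reached 1 FPKM, the patterns most like that of *Alb* were *Slc7a2*, a cationic amino acid transporter (Pearson r = 0.93 over 16 libraries), *Car8* (0.87) and *Hadha*, of mitochondrial fatty acid oxidation (0.86). The most opposite was the complement gene *C4b* (-0.90). *Slc7a2* was also nearest to *Afm* (0.91), followed by *Dnase2b* (0.91) and *Car8* (0.90), with the ferritin receptor gene *Scara5* the most opposite (-0.89). *Ttr* was most like *Sdhd*, a subunit of succinate dehydrogenase (0.91), *Rad50* (0.90) and *Cat*, for catalase (0.90), and most unlike the phospholipid flippase gene *Atp11a* (-0.93). The genes nearest to *Trf* were *C3*, the central complement component (0.82), *C4bp* (0.80) and *Slc1a4* (0.79), with *Smad9* the most opposite (-0.88). *Rbp4* was nearest to *Acsm5* (0.91), *Nr2f2* (0.88) and *Kansl3* (0.88). *Gc* was nearest to *Krcc1* (0.86), *Sptssa* (0.84) and *Dctn6* (0.82), opposite *Ube4b* (-0.79), and *Afp* to *Ccdc28a* (0.81), *Hmgn2* (0.80) and *Hpcal1* (0.79), opposite *Amd1* (-0.86). These are descriptions of the same 16 libraries, chosen as extremes among many genes.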

How the data were processed

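Gene expression was measured by stranded polyA RNA sequencing of 16 livers. Per the labels and methods, the authors filtered the reads, aligned them to mm39 with HISAT and to reference genes with Bowtie2, and deposited FPKM values, scaled to transcript length and library size and written with a decimal comma and 2 decimals. Versions, counting and annotation are not given in the sources used here. FPKM are not counts, so no count test was used. Here, 1 was added, log2 taken, and limma 3.58.1 (R 4.3.3; lmFit, eBayes with trend) fitted to 12770 genes whose mean reached 0.1 FPKM, two-sided, with Benjamini-Hochberg adjustment at 0.05. Exact permutation tests used 12870 splits (smallest p 0.000155), and correlations 100000 permutations. Python 3.11.15, numpy 2.4.6, scipy 1.17.1 and pandas 2.3.3 did the rest. limma and the exact test were tested on simulated data.

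Groups follow the genotype label. The carrier genes, the score genes and all gene lists were chosen with earlier results of these data known. Listed genes are named if past the threshold (at most the 4 largest slopes of a list), if among the 3 highest by FPKM, or where stated, and for each carrier the 3 genes of highest and the 1 of lowest Pearson r. Some results that this rule names are not reported here. Promoters were read from GRCm39, as the table of promoters at hand was of another build. Alternatives were another pseudocount, filters, 3 scalings, no variance trend, runs of mouse numbers, left-out libraries, a replicate block and other scores.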

Additional observations from a re-analysis of the deposited data

Results flagged for a closer look

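Of 16 groups examined (the 7 carrier genes and the acute-phase score in each genotype), 1 held a library that stood far from the others of its group. *Afp* in Fgl1 LKO replicate 3 was 1.14 FPKM, and the next highest Fgl1 LKO value was 0.64 FPKM, a gap of 0.581 of the whole range of the group, above Dixon's 95% critical value. Chance flags about 1 in 20 groups, so that about 0.8 of 16 would be expected. The same liver had the lowest acute-phase score of the series (-1.10) and the highest *Alb* of its genotype (47785 FPKM). Without it, the genotype difference of *Afp* was -0.027 in place of 0.035 on the log2 scale, neither of which passed the threshold.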

How the results depend on the processing

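No carrier gene passed the threshold between genotypes under any of the alternatives tried, a threshold that *Fgl1* itself missed in the main fit (limma adjusted p = 0.0725). The signs for *Ttr*, *Afm* and *Gc* held in all 29, although *Ttr* was -0.061 and *Afm* -0.11 without the first run. *Alb* was at 0 after quantile normalization, where its rank alone sets its value and it was second to *Mup7* in 1 library of each genotype, and at 0.040 without the first run of mouse numbers. *Trf* turned to 0.0043 after rescaling to an equal sum, to 0.11 without Fgl1 WT replicates 5 and 7 together, chosen after seeing the data, and lay between -0.041 and 0.054 when single libraries were left out. *Afp* turned to -0.045 when the fit held the run and -0.019 without its first (-0.027 to 0.081 without single libraries), and *Rbp4* to 0.068 and 0.057. Leave-one-out ranges of the genotype difference were -0.20 to -0.081 for *Alb*, -0.23 to -0.13 for *Ttr*, -0.30 to -0.20 for *Afm*, -0.14 to -0.10 for *Gc* and -0.099 to -0.0081 for *Rbp4*. The number of genes past the threshold between genotypes was 1 in place of 0 after rescaling to an equal sum, with a run term, without the first run, with the replicate block and with the score as a covariate.

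For the score, signs held in all 31 alternatives for *Alb*, *Ttr*, *Trf*, *Afm* and *Rbp4*. *Ttr* lost its call with the run as a term (-0.23), with the replicate block (-0.19, adjusted p = 0.963), within Fgl1 WT (-0.23) or Fgl1 LKO (-0.23) alone, and without the 2 farthest libraries (-0.20). *Alb* passed with a filter of mean FPKM at least 1 (-0.20, adjusted p = 0.0262), without a variance trend (-0.20, adjusted p = 0.0228) and by Pearson correlation (-0.77), and *Rbp4* after quantile normalization (-0.24, adjusted p = 0.0492), under which *Alb* was -0.043 (adjusted p = 0.796) and *Trf* 0.062 (adjusted p = 0.679). For *Alb*, the highest gene in 14 of 16 libraries, that scaling leaves little room for a slope. *Gc* turned to -0.16 after quantile normalization, -0.017 after rescaling to an equal sum, -0.020 within Fgl1 LKO alone and -0.012 without the 2 farthest libraries, and *Afp* to 0.015 with the block. Leave-one-out slopes ranged from -0.21 to -0.17 (*Alb*), -0.23 to -0.20 (*Ttr*), 0.10 to 0.17 (*Trf*), -0.16 to -0.12 (*Afm*), -0.011 to 0.014 (*Gc*), -0.090 to -0.027 (*Afp*) and -0.14 to -0.088 (*Rbp4*). In place of 273, the number of genes related to the score was 39 when the run was fitted, 41 without its first, 3 with the block, 173 with *Saa1* alone, 131 with the orosomucoid genes alone, 43 in Fgl1 WT and 10 in Fgl1 LKO alone, 38 without the 2 farthest libraries, and 67 to 483 when single libraries were left out. It moved by over 1.5 times without Fgl1 WT replicates 2 (160), 3 (132) or 5 (67) and without Fgl1 LKO replicates 3 (99), 5 (141), 6 (483) or 7 (439). The causes of these changes were not tested, beyond the smaller number of libraries in some fits.

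The difference in slope between genotypes turned sign for *Alb* after quantile normalization (-0.17), when the run was fitted (-0.055), without its first (-0.055) and with the block (-0.0091), for *Afm* when the run was fitted (-0.026) or its first left out (-0.020), and for *Gc* after quantile normalization (0.011), and 0 to 1 genes passed when single libraries were left out, with 1 gene without each of Fgl1 LKO replicates 4, 6 and 8.

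Same-numbered mice of the genotypes had a mean r of 0.073 over 8 pairs (over 0.1 in 3). Over 56 pairs with different numbers it was -0.0098 (over 0.1 in 17). These pairs are too few to settle whether the replicate numbers pair the mice. The *Ttr* slope was -0.19 under the block against -0.22 in the main fit, and why its call was lost there was not tested. FPKM carry no depth, so counting error is unknown and matters most for *Afp*.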
